A study of Drosophila melanogaster with 800 samples.

Results

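CG43134 (FBgn0262608, chromosome X) is a Drosophila melanogaster gene whose transcript was abundant in females and low in males of most lines studied here. In 6 of 200 inbred lines, lines 235, 301, 437, 563, 627 and 705, the males carried it at nearly the female level. These lines were chosen by that measurement, as those whose mean of the 2 male libraries was at least 6 log2 FPKM. FPKM is the number of fragments scaled by transcript length and library size, and log2 FPKM is its base-2 logarithm. The 6 lines hold 24 of the 800 libraries, and the 194 lines below 6 hold the other 776.

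The lines belong to the DGRP, a panel of sequenced inbred lines derived from wild-caught females. Each line is its own genotype, and no allele, transgene or treatment sets the 6 lines apart in the labels. Mated flies of 3 to 5 days were pooled whole, with 25 females or 30 males in a pool, and each line and sex gave 2 pools and 2 libraries of RNA depleted of ribosomal RNA. The labels record no difference between the groups other than the line, and a line counted once in every comparison.

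Sex-biased expression in the adult fly comes mostly from the reproductive organs. The ovary and the female tract make transcripts that males lack, and the testis, accessory glands and ejaculatory duct make transcripts that females lack. The accessory glands and ejaculatory duct supply the seminal fluid, a mixture of proteins and peptides passed to the female at mating. In a whole fly, fewer cells of a type and less RNA per cell cannot be told apart.

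The libraries ranged from 7.27 to 30.6 M reads (megareads), with a median of 11.5 M. These depths were not given by the labels. They were rebuilt from the smallest step between low values and annotated exon lengths, so they and the read numbers below are estimates of the denominator of FPKM, which may differ from the reads sequenced. The 12 male libraries of the 6 lines held 9.53 to 15.1 M. For female material in the male pools, 17 female tissue markers were summed, of which 16 were in the table. Their summed level was 17.6 to 37.9 FPKM in the 12 male libraries of the 6 lines and 10.98 to 1029 FPKM in the other male libraries, with medians of 22.4 and 28.8. No marker was at 0 in all 12. The marker grk was only 0.36 log2 units higher in females than in males over all lines. Its male median was 3.42 log2 FPKM in the 6 lines and 3.38 in the others. The sum therefore holds expression by males and does not measure female material alone. The 12 male tissue markers summed to 4910 to 6696 FPKM in the 6 lines and to 4625 to 8980 in the others. The male libraries of the 6 lines thus lay within the range of the other male libraries for both marker sets.

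The values that chose the lines are given first, without a test. Male line means of CG43134 were 9.26 in line 235, 9.51 in line 301, 9.31 in line 437, 9.30 in line 563, 9.16 in line 627 and 9.07 log2 FPKM in line 705. Their mean was 9.27 ± 0.15 (SD, n = 6). The other 194 lines ran from 0.19 through a median of 3.52 to 5.97, with a mean of 3.55 ± 1.08 (SD, n = 194). The means differed by 5.72 on the log2 scale, or 52.6-fold.

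The threshold fell in an empty stretch. Just inside it stood line 705 at 9.07, and just outside it line 217 at 5.97, line 850 at 5.93 and line 461 at 5.81, which leaves a gap of 3.10 log2 units. A threshold of 7 chose the same 6 lines, and a threshold of 5 chose 23. Both male libraries of each of the 6 lines were high. The lowest single library was 8.45 in line 705, whose other library was 9.69, and in the remaining 5 lines the libraries lay between 9.06 and 9.54. Of the other lines, 5 had 1 library at or above 6 and 0 had both. In reads, the gene was covered by 1967 to 5077 in the male libraries of the 6 lines and by 3 to 762, with a median of 56, in the other male libraries.

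Females of the same lines, which the choice did not use, were not set apart. Female line means of CG43134 were 9.77 in line 235, 9.98 in line 301, 9.68 in line 437, 9.97 in line 563, 9.94 in line 627 and 9.75 in line 705. The other lines ran from 8.68 through 9.61 to 10.46, a range that holds all 6. The difference was 0.22 ± 0.13 log2 units (SE), which did not pass the test (limma, Benjamini-Hochberg adjusted p = 1.0). The male-minus-female difference within a line was -0.78 to -0.37 log2 units in the 6 lines and -9.39 to -3.60 in the others. Among the 194 lines, the male level had a Spearman rho of 0.13 with the female level, given as a description.

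**Figure D1:**
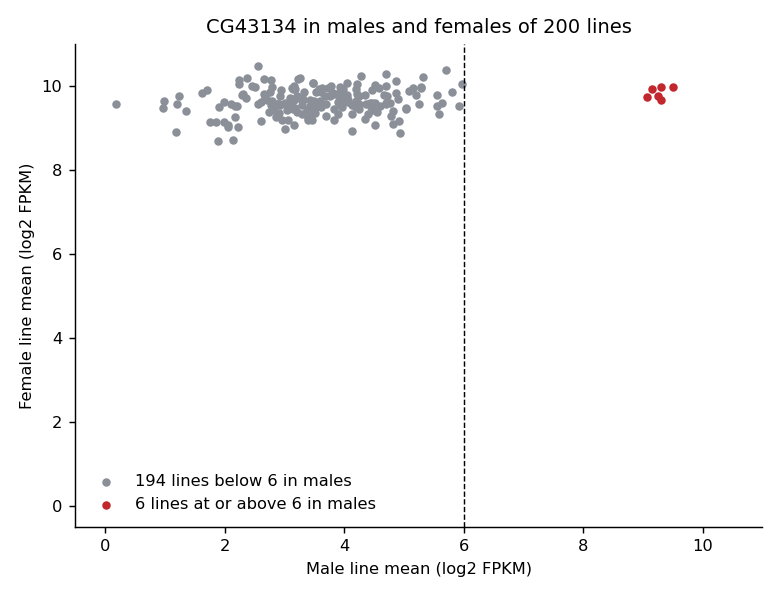
CG43134 in males (x axis) and females (y axis) of each line, as line means of 2 libraries in log2 FPKM. Red points are the 6 lines at or above 6 in males and grey points the 194 others. The red points sit at 9.07 to 9.51 on the male axis, to the right of the dashed threshold at 6 and apart from the grey points, while on the female axis they lie within the grey range.

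The genes next to CG43134 were taken up next. The gene that follows it in the annotation's order, CG43135 (FBgn0262609, X), was also raised in males of these lines. Its male line means were 3.14 in line 235, 1.99 in line 301, 2.66 in line 437, 1.72 in line 563, 1.56 in line 627 and 2.23 log2 FPKM in line 705. The other lines ran from the floor of the scale, -9.97 (no reads), through a median of -5.83 to -0.03. All 6 lines stood above all 194.

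Few reads lay behind these values. In the 12 male libraries of the 6 lines CG43135 had 3 to 28 reads, and it was above the floor in 12 of 12. Of the other 388 male libraries, 244 were at the floor and the highest stood at 0.85, which 11 of the 12 exceeded. Summed over libraries, there were 1.21 reads per M in the 6 lines (exact 95% Poisson interval 1.03 to 1.40) and 0.0439 in the others (0.0382 to 0.0502), a ratio of 27.5. These intervals cover counting error only. Median reads of CG43134 and CG43135 were 2804.5 and 15 in males of the 6 lines and 56 and 0 in the other males. In females they were 4301.5 and 29.5 in the 6 lines and 3895.5 and 24.5 in the others. CG43135 thus had few reads wherever CG43134 had many, and whether its reads were shared with CG43134 was not tested.

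The mean of CG43135 over all male lines was under the filter of 0 log2 FPKM used below, so its test comes from the fit with no filter. There it was 8.87 ± 1.32 log2 units higher (SE, adjusted p = 6.41e-07, limma). That size depends on the pseudocount of 0.001 FPKM already in the deposited values, and with 1 FPKM it was 2.32 (adjusted p = 2.02e-51). In females the 6 lines had 3.01 to 4.61, within the range of the others. The female difference of 0.77 ± 0.61 did not pass (limma, adjusted p = 1.0).

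The neighbourhood beyond CG43135 gave no call. Of the 10 annotated genes on each side, 13 passed the filter in males and 0 were called by limma, against 0.553% of all 15016 features tested. An unadjusted p below 0.05 was found for 1 of the 13, beside 1515 of all 15016 features. With no filter all 20 were tested and CG43135 was the 1 called, against 0.278% of 34476 features (0.0696% higher and 0.209% lower), with 2 at an unadjusted p below 0.05.

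On the other side of CG43134 the nearest gene is Muc4B, a mucin gene by its name, at -7.23 to 1.09 in males of the 6 lines and at -9.97 to 1.93 in the others. Its difference was 0.94 ± 1.67 with no filter (adjusted p = 0.986, limma). Femcoat, the gene after Muc4B and a female-higher gene like CG43134, was at -6.61 to -1.18 against -9.97 to 2.08, a difference of -0.09 ± 1.19 (adjusted p = 0.998, limma). The ranges of both lay inside those of the other lines.

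The second gene on the side of CG43135, CG15576, had a male difference of -0.25 ± 0.12 (limma, adjusted p = 0.477). None of the genes beyond it on that side, out to the tenth, passed the test in males. In females 10 of the 20 neighbours were tested and 0 were called by limma. An unadjusted p below 0.05 was found for 0 of them, beside 377 of all 10931 features. Farther along X, 0 of 56 genes at 11 to 50 genes away, 2 of 94 at 51 to 100, 1 of 187 at 101 to 200 and 3 of 2109 beyond were called in males with no filter, beside 0.278% of all features.

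**Figure D2:**
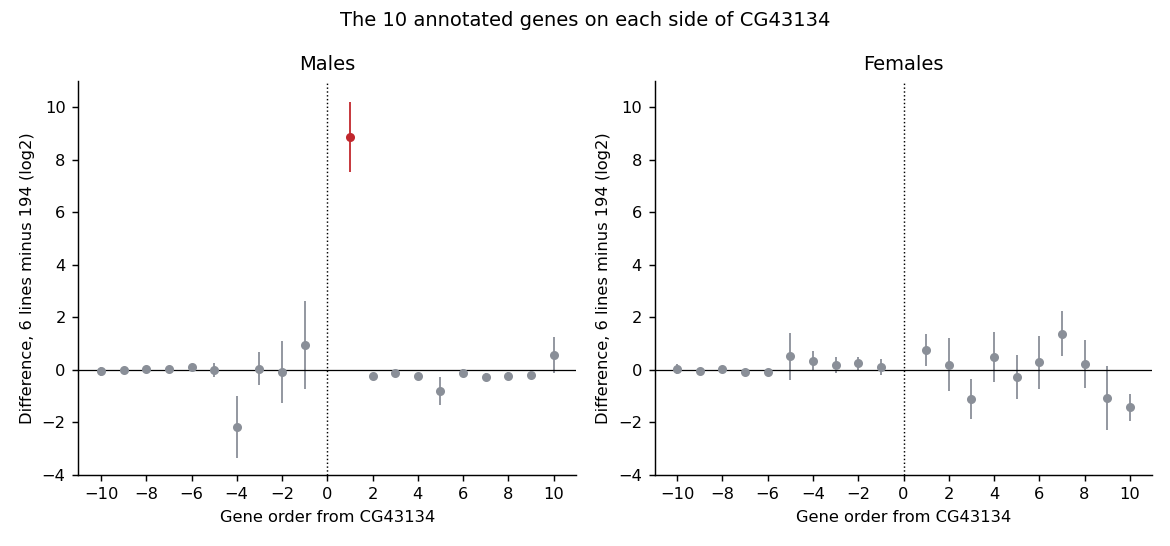
Difference between the 6 lines and the 194 others for the 10 annotated genes on each side of CG43134, by gene order on X, in males (left) and females (right), on the log2 scale with no filter on low values. Points are differences of line means and bars are standard errors. CG43135, in red, is the 1 neighbour called, at 8.87 in males and 0.77 in females, where it was not called.

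A deposited table of variant density gives, for each gene and line, the log2 of the density of sequence variants, with the same floor for none. In CG43134 the 6 lines had 4.30, 2.30, 4.30 and 2.30 in lines 235, 301, 437 and 563, the floor in line 627 and 2.89 in line 705. So 5 of 6 lines carried a variant counted in the gene, as did 166 of the 194 others, and the densities did not differ by the test (adjusted p = 1.0, limma). In CG43135, 0 of 6 and 65 of 194 lines carried one (adjusted p = 1.0, limma). Of 31158 features tested, 122 (0.392%) were called for variant density, 2 higher (0.00642%) and 120 lower (0.385%) in the 6 lines, and 0 of the 20 neighbours were among them, with 0 at an unadjusted p below 0.05. For variant density no line was left out and no rank-based fit was run. How far its calls rest on 1 line at the floor was therefore not tested. The 6 lines held 4 different densities in CG43134 and the same one, the floor, in CG43135.

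Other female-higher genes were examined with no filter on low values. Of 34476 features measured in males, 3 (0.0087%) had all 6 lines above all 194 others and 1 (0.0029%) had all 6 below. Those above were CG43135, CG7443 and CG13299, each of them higher in females than in males of the other lines. In females the corresponding counts were 0 and 0 of 34405 (0.0% each).

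CG7443 (FBgn0037577, chromosome 3R) had male line means of 3.55 in line 235, 3.80 in line 301, 5.13 in line 437, 4.53 in line 563, 4.77 in line 627 and 3.10 log2 FPKM in line 705. The other lines ran from -0.09 through 1.49 to 2.93. Single male libraries overlapped, with a lowest of 2.62 in the 6 lines and a highest of 3.09 in the others. Males of the 6 lines were 2.66 ± 0.23 log2 units higher (SE, limma, adjusted p = 5.28e-20), and the difference was 2.46 to 2.87 when any line or replicate was left out.

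Females did not share the rise of CG7443. They stood at 4.79 to 5.63 in the 6 lines and at 2.56 to 6.08 in the others, a difference of 0.14 ± 0.17 (adjusted p = 1.0, limma). The difference between the sexes was itself tested on the male-minus-female values of each line. It was 2.52 ± 0.27 log2 units (adjusted p = 1.93e-13, limma), so the rise in males exceeded that in females.

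CG13299 (FBgn0035694, chromosome 3L) had male line means of 4.56 in line 235, 4.64 in line 301, 4.36 in line 437, 6.04 in line 563, 4.32 in line 627 and 5.03 log2 FPKM in line 705. The other lines ran from -9.97 through -0.57 to 2.54. The line means did not overlap, but single libraries did. The lowest male library of the 6 lines stood at 4.16 and the highest of the others at 4.59. Like CG43135, CG13299 lay under the filter, and with no filter it was 5.72 ± 0.75 log2 units higher (SE, limma, adjusted p = 3.47e-09). Over the alternative fits run for it, the difference ran from 4.02 to 5.84. In females it averaged 7.16 in the 6 lines and 6.94 in the others (adjusted p = 1.0, limma).

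One unannotated transcript, XLOC_029485, went the other way. Its male line means were -3.87 in line 235, -7.53 in line 301, -4.85 in line 437, -7.45 in line 563, -9.97 in line 627 and -7.16 in line 705. The other lines ran from -2.86 to 0.42, so the transcript was scarce everywhere and nearly absent in these males. With no filter the difference was -6.03 ± 0.27 log2 units (SE, limma, adjusted p = 1.09e-50). With 1 FPKM as the pseudocount the difference was -0.66. In females its levels overlapped and the difference of 1.08 ± 1.00 did not pass (adjusted p = 0.999, limma).

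**Figure D3:**
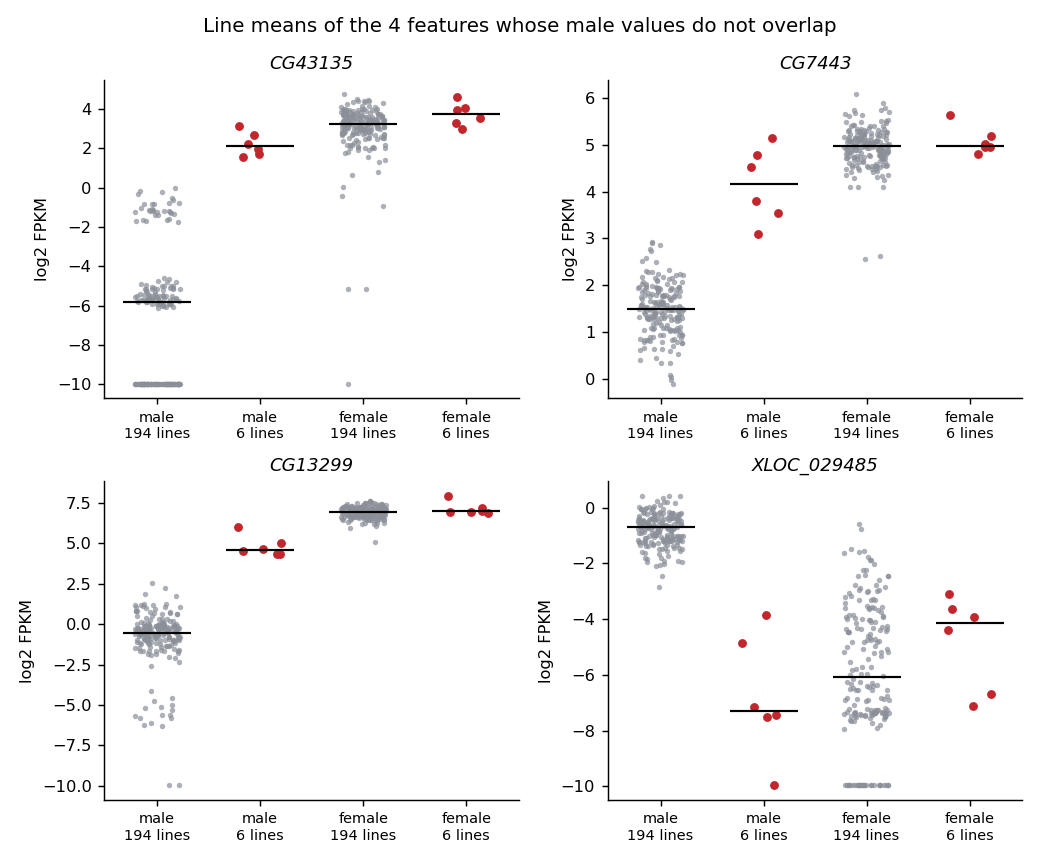
Line means in log2 FPKM of the 4 features whose male values in the 6 lines (red) do not overlap those in the 194 others (grey), with males on the left and females on the right of each panel and black bars at medians. CG43135, CG7443 and CG13299 lie above the grey range in males and XLOC_029485 lies below it, while the female values overlap in all 4 panels.

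Female-higher genes that passed the filter did not follow CG43134 as a list. The list held 3214 genes, and those under the filter in males, CG43135 and CG13299 among them, are not counted here. Of 2825 tested in males, 7 were called (0.248%), 2 higher and 5 lower, beside 0.553% of all features. Their median difference was -0.03, the same as over all features. The 2 higher were CG7443 and Spn88Ea, a serpin gene, at 0.48 log2 units, whose call was lost without replicate 2, line 563 or line 627. The yolk protein genes, made by the female fat body and ovary, had 0 of 3 called by limma with 1 at an unadjusted p below 0.05. Over all 15016 features in males, 1515 stood at that level. Yp1 differed by -1.73 ± 0.85 (adjusted p = 0.474, limma), which is toward lower levels in these males. The ovarian germline list had 0 of 6 called by limma and 0 at an unadjusted p below 0.05. Only 1 of 9 chorion genes and 0 of 7 vitelline membrane genes passed the filter in males.

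The genes that set sex showed no call in males. In the sex determination list 0 of 9 were called by limma, with 0 at an unadjusted p below 0.05 and differences from -0.08 to 0.06. These values are totals per gene and do not show which transcript forms were made. In the dosage compensation list, the machinery that raises expression of the male X, 0 of 7 were called by limma with 0 at an unadjusted p below 0.05. The median was -0.03. That unadjusted level was reached by 1515 of all 15016 features in males. On the X as a whole 5 of 1869 genes were called (0.268%), and on the major autosome arms 57 of 10183 (0.56%).

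Over all features in males, 83 of 15016 were called (0.553%), 14 higher (0.0932%) and 69 lower (0.46%) in the 6 lines. Of these 62 were annotated genes and 21 were unannotated transcripts, 13 were long noncoding RNAs, and 48 differed by at least 1 log2 unit. Male-higher genes supplied 57 of the calls, 4 higher and 53 lower, out of 5749 tested (0.991%), and their median difference was -0.11 beside -0.03 over all features. When every library was centred on its own median, 23 of 78 calls were higher in place of 14 of 83.

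Most of these calls were lost when a particular line was left out. Leaving out 1 line at a time ended 17 to 31 of the 83 calls, and 12 calls held without any 1 line. A rank-based fit, added after the data were seen, in which 1 extreme line weighs less, called 14 features, of which 13 were among the 83. The calls that held without any line, without either replicate and on ranks were 10, of which 2 were higher and 8 lower. CG7443 was 1 of the 2 higher.

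The other higher gene was CG42822 (FBgn0262004, 3R), at 3.96, 5.35, 3.38, 4.24, 3.43 and 2.94 log2 FPKM in males of lines 235, 301, 437, 563, 627 and 705. The others ran from 0.70 through 2.46 to 5.24. So 1 of the 6 exceeded all others and 3 exceeded their 95th percentile. The difference was 1.42 ± 0.28 (limma, adjusted p = 0.000559).

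Among the 8 that were lower, Anp had the lowest p. Anp (FBgn0000094, 3R) encodes andropin, an antibacterial peptide made in the ejaculatory duct. Its male line means were 7.98 in line 235, 7.76 in line 301, 6.13 in line 437, 6.75 in line 563, 6.24 in line 627 and 5.69 log2 FPKM in line 705, against 7.83 through 9.17 to 10.38 in the others. Of the 6 lines 5 lay below all others. The difference was -2.42 ± 0.20 (limma, adjusted p = 2.21e-22) and ran from -2.67 to -2.21 when any line or replicate was left out.

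Acp54A1 (FBgn0083936, 2R), named as an accessory gland protein gene, had male line means of 1.40 in line 235, 7.58 in line 301, 5.03 in line 437, 7.03 in line 563, 6.46 in line 627 and 2.23 in line 705. The others had a median of 10.26 and reached 12.26, with 1 line as low as 0.65. All 6 lines lay below the 5th percentile of the others, 8.60. The difference was -5.20 ± 0.48 (limma, adjusted p = 6.44e-18), and the spread among the 6 lines, 2.59 (SD), was more than that among the others, 1.11.

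CG17242 (FBgn0250841, 2L) had male line means of 7.02, 5.39, 5.85, 6.02, 3.74 and 4.002 in lines 235, 301, 437, 563, 627 and 705, against 4.73 through 7.59 to 8.93. Lines 627 and 705 lay below every other line, and line 235 lay above their 5th percentile of 6.94. The difference was -2.25 ± 0.22 (limma, adjusted p = 4.47e-17).

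Noncoding and uncharacterised genes made up the rest. CR44391 (2R) had line means of 3.35 to 5.20 in males of the 6 lines and 4.36 to 8.90 in the others, with all 6 below the 5th percentile of the others, and a difference of -2.52 ± 0.30 (limma, adjusted p = 5.08e-11). lncRNA:CR43888 (3L) had 0.72 to 4.39 against -0.78 to 6.96, with 5 of 6 below the 5th percentile, and a difference of -2.67 ± 0.33. CG33290 (3L), lncRNA:CR44672 (3L) and CG11590 (X) differed by -2.23 ± 0.46, -1.75 ± 0.28 and -0.98 ± 0.16, each passing the test in limma. CG33290, lncRNA:CR44672 and CG42822 were outside the rule for named genes and were named after their values were seen.

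Gld (FBgn0001112, 3R), glucose dehydrogenase, is another gene known in the ejaculatory duct. Its male line means were 3.83 in line 235, 5.55 in line 301, 4.43 in line 437, 3.02 in line 563, 3.74 in line 627 and 4.48 in line 705, against 2.94 through 5.52 to 6.81. Line 301 thus stood at the median of the others. The difference of -1.31 ± 0.22 (limma, adjusted p = 2.2e-05) held without any 1 line or replicate but not on ranks.

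**Figure D4:**
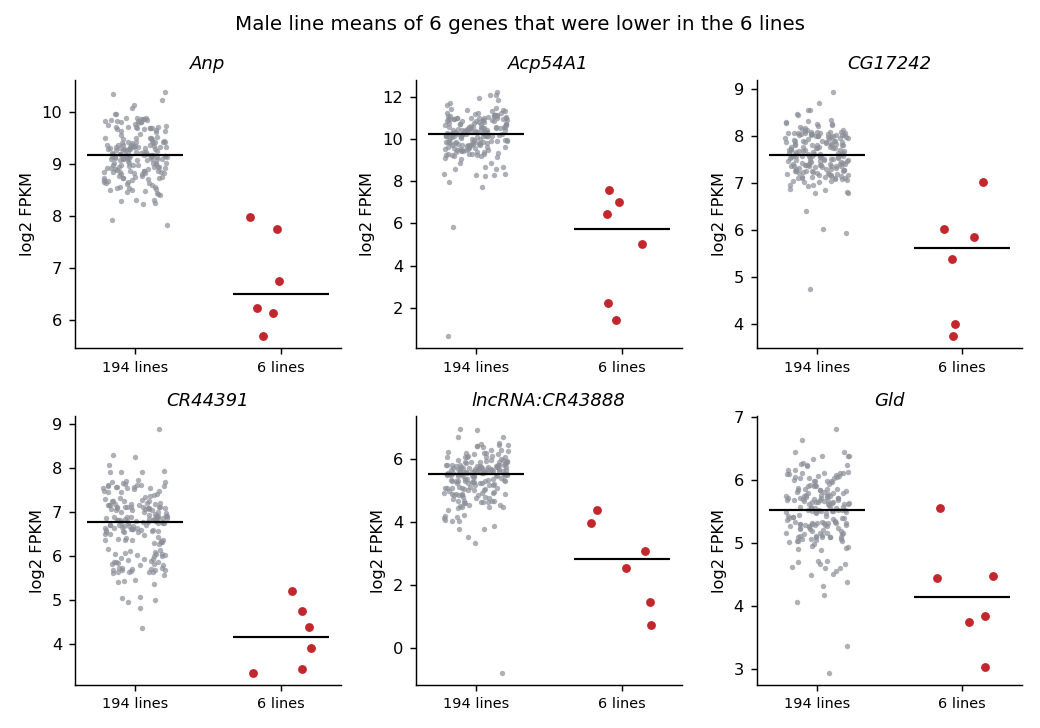
Male line means in log2 FPKM of 6 genes called lower in the 6 lines (red) than in the 194 others (grey), with black bars at medians. All 6 red points lie below the 5th percentile of the grey points in Anp, Acp54A1 and CR44391, and 5 of 6 do in CG17242, lncRNA:CR43888 and Gld. Below every grey point lie 5 red points in Anp, 3 in CR44391, 2 in CG17242 and 0 in Acp54A1, lncRNA:CR43888 and Gld.

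The lists for the male reproductive organs held 1 call in males. In the list of accessory gland genes, 12 well-known products such as the sex peptide gene SP, 0 of 12 were called by limma, with 1 at an unadjusted p below 0.05 and a median of -0.09. In the ejaculatory bulb and duct list Gld was the 1 called of 5 (20.0%, beside 0.553% of all features), and the median was -0.02. EbpII, a protein of the ejaculatory bulb, was at 10.87 to 11.64 in males of the 6 lines and differed by -0.06. Anp and Acp54A1 are in neither list. In the testis list 0 of 17 were called by limma and 4 had an unadjusted p below 0.05. That level was reached by 1009 of 5749 male-higher genes and 1515 of all 15016 features. All 17 testis differences were below 0, from -0.58 to -0.05 with a median of -0.20, beside a median of -0.11 for male-higher genes.

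Lists for other organs and responses gave 1 call in males. It was Cyp4ac3, 1 of 78 cytochrome P450 genes tested (1.28%), at -1.25 (limma, adjusted p = 0.00405), and the call was lost without line 627 or replicate 1. Antimicrobial peptide genes of the immune response had 0 of 11 called by limma with 1 at an unadjusted p below 0.05. Glutathione S-transferases (33 tested), Jonah proteases (15), Turandot genes (4) and flight muscle genes (10) each had 0 called by limma and 0 at an unadjusted p below 0.05. Odorant binding proteins had 0 of 32 called and 1 at that level, heat shock genes 0 of 6 and 1, and eye and neuron genes 0 of 12 and 4. Over all features in males, 1515 of 15016 stood at that level.

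To separate the library that chose a line from the library tested, the lines were chosen from 1 male replicate and the other genes tested in the other. Replicate 1 chose 10 lines and replicate 2 chose 7, and each choice included all 6. The fits called 19 and 45 features, of which 16 and 34 were among the 83. In both fits and in the fit on line means 12 features were called, 1 higher and 11 lower. The 1 higher was CG7443, and the lower ones included Anp, Acp54A1, CG17242, CR44391, lncRNA:CR43888 and CG11590.

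In females of the same lines, 16 of 10931 features were called (0.146%), 1 higher (0.00915%) and 15 lower (0.137%). Of the 83 features called in males 31 were tested in females, and 8 were called there with the same sign. On ranks limma called 0 in females, with 332 at an unadjusted p below 0.05. Of the 16 calls 1 held whichever line or replicate was left out. CG4730 (FBgn0039355, 3R) was at -1.87 in females of line 235 and at -1.35 in line 563, and at 3.08 to 3.67 in the remaining 4 lines, beside a 5th percentile of 2.77 in the others. The difference was -1.75 ± 0.24 (limma, adjusted p = 4.33e-08). In males of those lines CG4730 was at 1.10 and 1.41, and the male difference of -0.22 ± 0.14 did not pass (adjusted p = 0.612).

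The difference between the sexes was called for 9 of 10500 features (0.0857%), 4 with a higher male-minus-female value in the 6 lines (0.0381%) and 5 with a lower one (0.0476%). Of the 9 calls, 3 held without any 1 line and 2, CG7443 and CG4730, also without either replicate. CG7443 was the 1 that held on ranks. For CG11590 the value was -0.97 (limma, adjusted p = 0.00497), and the call was lost without replicate 1. Its males stood at 3.86 to 4.63 in the 6 lines against a median of 5.12 in the others, and its female difference was -0.01 ± 0.11.

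Across the whole transcriptome the 6 lines were only slightly more alike than they were like the other lines. After subtraction of the mean of each gene, the correlation between male profiles over genes had a median of 0.048 over the 15 pairs of the 6 lines, from -0.064 to 0.12. Between the 6 lines and the others the median was -0.0085, and between replicate libraries of the same line it was 0.53 to 0.63. These are descriptions across genes, which are not independent.

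Within the lines below 6, no feature with a male mean of at least 2 log2 FPKM followed male CG43134 closely. The highest Spearman rho over 194 lines among the 10494 features whose mean reached 2 log2 FPKM were 0.35 for CG30411, 0.35 for CG3527, 0.34 for Dis3, 0.32 for CG7006 and 0.32 for Alg3. CG43135, below that mean and at the floor in 244 of the 388 male libraries of these lines, had a rho of 0.17. CG7443 and CG13299 were also below that mean and were not ranked. Within the 6 lines 19 features tied at a rho of 1, among them chic, Galphao, Syt1, Con and Syx1A. These rho values are descriptions with no test.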

How the data were processed

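RNA of whole flies was measured in 800 libraries from 200 lines. Per the submitters' processing notes, cutadapt 1.6, BWA 0.7.10, STAR 2.4.0e, Cufflinks 2.2.1, HTSeq and edgeR were used with builds BDGP5 and dm3, and their order is not given in the sources used here. The authors deposited log2 FPKM per feature and library with a floor of -9.97, the log2 of 0.001 FPKM, at which 29.6% of values sit, and variant density per gene and line on a log2 scale. Symbols and gene order came from the Ensembl annotation of BDGP6.54, release 115, matched by identifier for 16734 of 17097 annotated genes, so no coordinates are printed and 17917 unannotated transcripts have no position. The libraries are stranded per the labels, but the strand setting of the counting is not given, so reads of overlapping genes may be shared.

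Replicate pools of a line were averaged. The 6 and 194 line means were compared with limma 3.58.1 in R 4.3.3 (two-sided, variance trend) over features with a mean of at least 0, with Benjamini-Hochberg adjustment over all of them and calls at an adjusted p below 0.05. Male-minus-female differences tested the sexes against each other. Female-higher and male-higher genes differed by at least 1 log2 unit between the sexes over all lines at an adjusted p below 0.05. Within-line deviations of male and female libraries with the same number had a median correlation of 0.054, above 0.1 in 59 lines, so the numbers did not pair the sexes. Depth came from the smallest step between low values. In the median library 96.6% of values below 20 steps were whole within 0.05 steps, 0.247% lay midway between steps and 65.2% were odd multiples, so a step was taken as 1 read. Steps used Python 3.11.15, numpy 2.4.6, pandas 2.3.3 and scipy 1.17.1, and the fits were tested on simulated data.

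The lines, gene lists and tests were chosen with earlier results of these data known. Genes were named by rule as CG43134, its 10 neighbours on each side, the largest calls of each fit, up to 4 genes per list and the genes most like CG43134. CG13299, XLOC_029485, CG33290, CG42822 and lncRNA:CR44672 were named after their values were seen. Alternatives were the pseudocount, the filter, centring, replicates and lines left out, thresholds of 5 and 7, 5 principal components, a replicate block, the deposited line means and ranks.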

Additional observations from a re-analysis of the deposited data

Results flagged for a closer look

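In males, 1 of the 6 lines stood far from the other 5 in 13 of the called features that were named. This was measured as the gap to the nearest line over the range of the 6 and set against Dixon's 95% critical value. About 1 in 20 groups passes that value by chance. That rate does not apply to features named mostly for large differences, which 1 extreme line can produce. Line 627 was at the floor of -9.97 for lncRNA:CR44834 (0.943) and CG12730 (0.958), at 1.72 for TORIP (0.792) and at -2.21 for Cyp4ac3 (0.686). Line 301 was at the floor for lncRNA:CR43289 (0.961) and at -0.50 for CG30430 (0.94). Line 705 was at -3.65 for SdhAL (0.908), at -2.62 for CG17752 (0.711), at 6.93 for nolo (0.915, the highest) and at the floor for XLOC_019336 (0.933), XLOC_019337 (0.933) and XLOC_019338 (0.897). Line 235 was at -1.93 for CG7824 (0.869).

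The difference between the 6 lines and the others itself differed between males and females, by limma on the male-minus-female values, for 9 features. It was higher in males for CG7443 (2.52), CG4730 (1.53), CG30148 (2.39) and CG4783 (0.57). It was lower in males for Gld (-1.09), CG11590 (-0.97), CG12730 (-0.93), CG7824 (-0.83) and snoRNA:Psi18S-841b (-1.54). In the 8 fits without 1 line or replicate, the call held in 8 for CG7443 and CG4730, in 7 for CG11590 and CG30148, in 6 for CG7824, CG12730 and CG4783, in 5 for snoRNA:Psi18S-841b and in 3 for Gld. It was lost without replicate 1 for CG11590, CG7824, CG12730, snoRNA:Psi18S-841b and Gld, and without replicate 2 for CG4783. It was lost without line 627 for CG30148, CG12730, CG4783 and Gld, without line 235 for CG7824, without line 301 for snoRNA:Psi18S-841b, without line 705 for that gene and Gld, and without lines 437 and 563 for Gld. For CG30148 females of line 627 were at the floor of -9.97, and for CG4730 females of lines 235 and 563 were low.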

How the results depend on the processing

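The counts here are all calls of a fit, whether or not they were among the main calls. The male calls (83) became 52 with a pseudocount of 1 FPKM, 51 at a mean of at least 2, 13 at a threshold of 5 and 14 on ranks. Leaving out 1 line or replicate gave 50 to 92, the 50 without replicate 1. The female calls (16) became 8 with 1 FPKM, 39 with no filter, 44 with 5 principal components, 0 at a threshold of 5 (1243 at an unadjusted p below 0.05, limma) and 0 on ranks (332), and 16 to 29 in leave-outs, with 29 without line 437 and 25 without line 563. The calls for a difference between sexes (9) became 24 with no filter, 5 at a mean of at least 2, 3 at a threshold of 5, 19 with 5 principal components and 1 on ranks, and 6 to 17 in leave-outs, with 17 without line 235 and 16 without line 437. Those for variant density (122) became 255 by presence or absence and 1 at a threshold of 5. The 19 calls with the line chosen in replicate 1 became 45 the other way and 5 at a threshold of 5. A replicate block with line as a random effect gave 149 in males, 33 in females and 17 between sexes, and the shared number does not pair the sexes. A threshold of 7 chose the same 6 lines, so its counts for males, females, the sexes and variant density were the same by construction and are no test.

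Of the named calls 7 turned sign in a leave-out. In males they ran over the leave-outs from -0.012 to 0.67 for nolo, -2.34 to 0.22 for XLOC_019338, -2.27 to 0.15 for XLOC_019336 and -2.39 to 0.021 for XLOC_019337, the turn coming without line 705, and from -2.75 to 0.030 for CG12730, without line 627. In females XLOC_019337 ran from -2.19 to 0.12, turning without line 705, and between sexes CG12730 ran from -1.19 to 0.10, turning without line 627. CG43135, CG7443, CG13299 and XLOC_029485 kept sign and call in every leave-out, with 1 FPKM and with centring. They were grouped because their male line means in the 6 lines did not overlap those of the others. Their sign without any 1 line was therefore fixed in advance and is no test. The lower threshold and the rank-based fit were not run for CG43135, CG13299 or XLOC_029485. With the filter, CG7443 kept its call in each of those fits. The cause of the shifts in sign and in counts was not tested, and 6 lines limit the precision of every difference.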
